A study of Homo sapiens with 6 samples.

Results

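The 10 genes described here are a set around the transcription factor NF-κB: its subunit genes NFKB1, NFKB2 and RELB, the inhibitors and survival factors NFKBIA, TNFAIP3 and BIRC3, the secreted factors CXCL1, CXCL8 and IL6, and the adhesion receptor ICAM1. They were measured by RNA-seq in DLD1, an established human colorectal cancer line, and they are 10 of the 58884 genes in the expression table. The set was proposed after an earlier analysis of the same libraries in which TNFAIP3 was higher in the edited cells, also after a correction for gene length and GC content. The members were thus chosen by their counts in the parental against edited contrast. Their levels, fold changes and calls are given as a description of that contrast. The calls use the adjusted p of the fit to all genes, which is no test of members chosen in this way.

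The 3 parental libraries came from unedited DLD1 cells, and the 3 p85β KR-AA libraries, called edited here, came from DLD1 cells in which the endogenous p85β, encoded by PIK3R2, carries K477A and R478A. These changes fall in the nuclear localization sequence of p85β, a regulatory subunit of PI3 kinase, and the comparison asks which transcripts differ when that sequence is disrupted. Both conditions carry the helical domain mutation of PIK3CA that DLD1 has, neither received a drug or cytokine, and no time course was taken. The edited line was derived as a pair of independent homozygous knock-in clones, and the labels do not say which clone a library came from, so the edit, the choice of clone and any other difference between the lines cannot be told apart. Nothing in the labels says that replicates came from separate cultures, so p-values measure only the spread between these samples, which may be technical.

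NF-κB is a family of dimers that inhibitors of the IκB class hold in the cytoplasm. Signals from receptors for TNF, interleukin-1 and microbial products activate the IκB kinase complex, the inhibitor is degraded, and the dimers enter the nucleus and bind κB sites. Many of the genes they switch on act back on the pathway, among them NFKBIA and TNFAIP3, and others recruit neutrophils or signal to neighbouring cells. In the intestinal epithelium the pathway is best known for its part in inflammation and cell survival.

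Promoter sequences were available for 9 of the 10 members from RefSeq. RELB had no entry. For 5 members, chosen to cover the inhibitors and the secreted factors, the 250 bases upstream of the RefSeq start are printed, as matched to GRCh37. They read 5′ to 3′ in the direction of transcription, with each match to the kappaB consensus on either strand in capitals. The gene positions given further on are from GENCODE. The GENCODE spans of IL6, TNFAIP3 and CXCL8 begin before the RefSeq start, so the printed stretches of these genes lie partly or wholly inside them. They lie at chr6:138188146-138188395 (TNFAIP3, plus strand), chr14:35873956-35874205 (NFKBIA, minus strand), chr4:74734860-74735109 (CXCL1, plus strand), chr4:74606036-74606285 (CXCL8, plus strand) and chr7:22766569-22766818 (IL6, plus strand).
TNFAIP3: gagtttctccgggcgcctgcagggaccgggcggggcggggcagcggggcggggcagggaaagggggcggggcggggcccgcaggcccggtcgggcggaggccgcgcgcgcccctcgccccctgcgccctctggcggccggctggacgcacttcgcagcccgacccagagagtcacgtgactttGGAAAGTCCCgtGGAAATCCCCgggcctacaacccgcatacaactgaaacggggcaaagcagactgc
NFKBIA: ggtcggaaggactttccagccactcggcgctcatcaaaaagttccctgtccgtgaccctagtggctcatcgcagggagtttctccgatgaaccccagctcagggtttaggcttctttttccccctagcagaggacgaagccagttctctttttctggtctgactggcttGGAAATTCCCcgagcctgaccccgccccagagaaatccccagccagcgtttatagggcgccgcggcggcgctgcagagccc
CXCL1: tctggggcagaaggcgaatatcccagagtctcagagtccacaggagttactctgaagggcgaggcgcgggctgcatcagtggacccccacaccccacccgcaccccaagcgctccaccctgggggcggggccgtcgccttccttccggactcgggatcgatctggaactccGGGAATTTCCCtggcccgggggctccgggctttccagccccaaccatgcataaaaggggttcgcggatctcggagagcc
IL6: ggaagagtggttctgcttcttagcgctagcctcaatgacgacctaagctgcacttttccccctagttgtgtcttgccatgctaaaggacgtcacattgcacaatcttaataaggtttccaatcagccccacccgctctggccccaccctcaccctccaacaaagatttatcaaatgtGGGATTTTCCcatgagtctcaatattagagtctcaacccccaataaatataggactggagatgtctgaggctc
CXCL8: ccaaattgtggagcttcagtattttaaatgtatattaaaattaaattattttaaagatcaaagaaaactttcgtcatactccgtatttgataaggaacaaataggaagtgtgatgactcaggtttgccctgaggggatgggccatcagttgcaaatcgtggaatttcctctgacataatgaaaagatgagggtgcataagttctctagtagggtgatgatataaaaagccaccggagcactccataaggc

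The TNFAIP3 sequence holds a pair of neighbouring matches, beginning 67 and 55 bases before the start. NFKBIA has 1 match, 81 bases before the start. In CXCL1 the capitals cover 2 matches that overlap on opposite strands and begin 79 and 78 bases before the start, and IL6 has 1 match at 73 bases. The windows of 300 bases that were searched also held 1 match in NFKB1, 5 in NFKB2 over 2 of its promoters, and 2 in BIRC3, so that 7 of the 9 members held the consensus. No window of CXCL8 or ICAM1 did, which says only that these letters are not in that window. For reference, 13.3% of the 27305 genes with a promoter entry had the consensus in a window of the same length, as did 36.5% of the 104 pathway genes with an entry that are listed further on. The members are known NF-κB genes, so the share among them was not tested. The AP-1 motif TGANTCA was found in CXCL8, 137 bases before the start, and in 9.37% of all genes. The TATA motif TATAAA was found in CXCL8 at 31 bases and in ICAM1 at 30 bases before the start, and in 14% of all genes. In NFKBIA it was found only on the strand opposite to the printed one, against the direction of transcription.

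The libraries held 20301396 to 26712816 estimated counts each. Levels are given as CPM, the count scaled to a common library size by TMM, which assumes that most genes do not differ, and 1 count came to 0.0273 to 0.0728 CPM. The conditions differed in a large part of the transcriptome: with edgeR's quasi-likelihood test, 4597 of 16059 tested genes rose and 2825 fell in p85β KR-AA when called past 3-fold with a Benjamini-Hochberg adjusted p below 0.01. The size of the difference depended on gene properties. The median log2 fold change was 1.93 in genes under 40% GC and -1.49 in genes of at least 60% GC. These GC medians cover only genes above 1 CPM in every edited library, a filter that favours genes high in edited cells. By length, over all tested genes, the median was -1.12 under 1000 bases and 1.90 from 5000 bases upward. Scaling also mattered, since the median log2 fold change of all genes was 0.32 with TMM and moved by 0.92 with library totals, by -0.11 with DESeq2 size factors and by -0.47 with offsets for length and GC. A change of a member is therefore given with all 4 where they differ. PIK3R2 had 524.14, 169.29 and 312.96 counts in parental and 503.15, 475.99 and 124.51 in edited libraries (log2 fold change -0.93, SE 0.42, edgeR adjusted p = 0.056), and such counts do not show whether the edited bases are present. Of 13 colon epithelial markers, 11 exceeded 1 CPM in every parental and 10 in every p85β KR-AA library, EPCAM, CDH1 and CDX2 among them, but their summed level was 57233 to 79265 CPM in parental and 8831 to 10336 CPM in p85β KR-AA, most of it from KRT8, KRT18 and KRT19. Of the 12 tested, 6 fell, CDX2 among them, and 3 rose (CDH1, CDH17 and CEACAM5). With the offsets 4 fell and 1 rose (CEACAM5), while CDH1, CDH17 and CDX2 were not called. The sum of 10 fibroblast markers was 4.08 to 5.58 CPM in parental and 1718 to 1854 CPM in p85β KR-AA, and 4 of the 6 tested rose. VIM made up nearly all of the sum in edited libraries, with 9, 13 and 14 counts in parental and 67012.89, 48627.89 and 49227 in edited ones. COL3A1, DCN and LUM were at 0 in every parental library and at least 17.1-fold, 15.6-fold and 25.7-fold higher in edited cells, set against 3 counts in a parental library, and all 3 were also called with library totals, DESeq2 and the offsets. PDGFRA was at 0 in every library, and COL1A2, THY1 and FAP were at no more than 3 counts. The 10 leukocyte markers summed to 56.7 to 68.7 CPM in parental and 38.7 to 47.3 CPM in edited libraries. Most of this came from CD68, at 49.5 to 59.6 and 32.7 to 40.2 CPM. Of these 10, 3 exceeded 1 CPM in every parental and 2 in every edited library, while PTPRC was at no more than 3 counts and TYROBP at 0. The 3 that were tested (CD14, CD68 and CSF1R) were not called under any scaling or with the offsets. The 7 endothelial markers found summed to 1.38 to 3.12 and 1.85 to 2.13 CPM, with EMCN at 0. Among the endothelial markers KDR was at least 3.49-fold higher (2, 0 and 0 counts against 33, 22 and 17) and not called with the offsets. VWF fell by 1.71 on the log2 scale, with no call under library totals and its call kept in 3 of the 6 fits without a library. CLDN5, with few counts, was called higher with the offsets only (3.19). The part of these differences in the values that follow was not tested. Whether the edited and the parental libraries come from the same line was not tested either, since gene counts do not settle it, so each value below compares the libraries as they are labelled.

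All 10 members passed the filter on low counts, IL6 through the edited libraries alone. With TMM scaling 5 of them met the threshold for higher (TNFAIP3, BIRC3, CXCL1, CXCL8 and IL6), 1 met that for lower (RELB), and 4 met neither (NFKBIA, NFKB1, NFKB2 and ICAM1). Among all tested genes 28.6% met the threshold for higher and 17.6% for lower. Each of the 10 calls was kept in all 6 fits that left out a library. For members chosen by this contrast that describes these libraries and is no independent support. With the length and GC offsets 4 members were above the threshold and none below it, where the share of all genes was 12.9% and 11.3%. With library totals, 7 were above it and none below, with 43.9% and 6.06% of all genes. DESeq2 gave 5 and 1, with 26.2% and 19.3% of all genes. No member had overlapping CPM ranges between the conditions, 7 being higher and 3 lower in edited cells, and 83.5% of all tested genes did not overlap either (47.0% higher and 36.5% lower). In these bulk libraries a smaller share of cells that express a gene and less of its RNA per cell cannot be told apart.

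**Figure D1:**
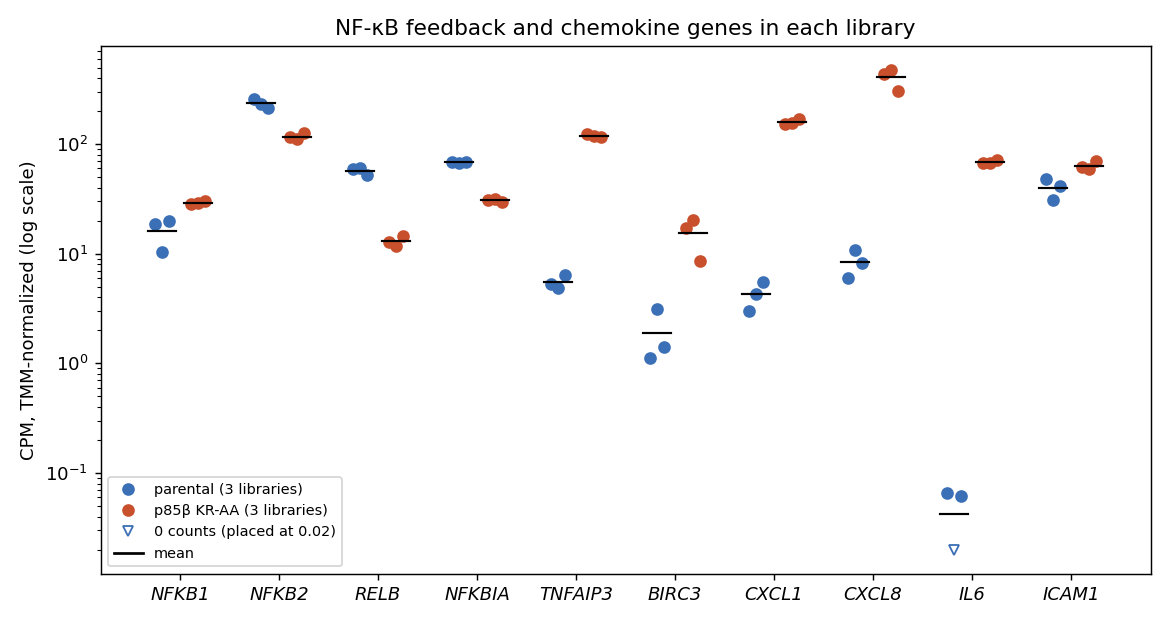
CPM after TMM scaling (log axis) of the 10 genes in each of the 3 parental and 3 p85β KR-AA libraries, with the mean as a bar and an open triangle for the library with 0 counts. The parental and p85β KR-AA points of every gene lie apart, and the mean of CXCL8 is 8.37 CPM in parental and 405.9 CPM in p85β KR-AA cells.

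The subunit genes differed from each other in how they stood. NFKB1, which encodes a precursor processed to a DNA-binding subunit of the canonical dimer, lies at chr4:103422487-103538459 on the plus strand (GRCh37, as are all gene positions here). Its counts were 279, 143 and 320 in parental and 1044, 832 and 837 in edited cells, or 16.2 ± 5.07 and 29.3 ± 1.05 CPM (SD, n = 3). Replicate 2 of the parental cells was the lowest, and the 2 ranges did not overlap. On the log2 scale the difference was 0.85 (SE 0.21) with TMM, 1.76 with library totals, 0.74 with DESeq2 and -0.56 with the length and GC offsets, so its direction depended on the correction.

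NFKB2, the corresponding precursor of the non-canonical pathway, lies at chr10:104153867-104162281 on the plus strand. It had 3898, 3208 and 3497 counts in parental and 4225, 3194 and 3443 in edited cells, nearly the same raw counts, and after TMM scaling 236.1 ± 21.7 and 117.3 ± 7.34 CPM (SD, n = 3). As a log2 fold change this was -1.01 (SE 0.13) with TMM and -1.13 with DESeq2, against -0.08 with library totals and -0.09 with the offsets. The lower level of NFKB2 was thus seen with TMM and DESeq2 scaling, and was close to 0 with the other corrections.

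RELB, the partner of the processed NFKB2 product, lies at chr19:45504719-45541450 on the plus strand. Its counts were 891, 833 and 848 in parental and 471, 341 and 400 in edited libraries, lower in each edited library before any scaling. After scaling it stood at 57.4 ± 4.45 and 13.1 ± 1.37 CPM (SD, n = 3), or -2.13 (SE 0.15) as a log2 fold change. It was -2.25 with DESeq2, and -1.20 with library totals and -0.61 with the offsets, short of 3-fold in the latter pair. At 65.1% GC RELB has the highest GC content of the members.

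RELA, the transactivating partner in the canonical dimer, is not a member. It had 2135, 1665 and 2085 counts in parental and 3519, 2585 and 2890 in edited cells, a log2 fold change of -0.43 (SE 0.13, edgeR adjusted p = 0.0074), which missed the fold threshold. It turned to 0.49 with library totals and 0.64 with the offsets, so no direction is given for RELA.

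The inhibitor genes differed in how far they stood from their parental level. NFKBIA encodes IκBα, which binds the dimers and is itself switched on by them, and lies at chr14:35870285-35873955 on the minus strand. It had 1027, 922 and 1114 counts in parental and 1142, 904 and 815 in edited libraries, corresponding to 68.0 ± 0.81 and 30.8 ± 0.95 CPM (SD, n = 3). The raw counts of the conditions overlapped, whereas the scaled values did not. The difference in log2 terms was -1.14 (SE 0.13) with TMM, -1.26 with DESeq2, -0.59 with the offsets and -0.22 with library totals, short of 3-fold in each.

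TNFAIP3, a ubiquitin-editing enzyme that ends signalling at the receptor complexes, lies at chr6:138188351-138204451 on the plus strand. Its counts were 80, 67 and 103 in parental and 4516, 3399 and 3218 in edited libraries, so that the lowest edited library lay far above the highest parental one. Scaled levels were 5.52 ± 0.76 and 119.6 ± 3.15 CPM (SD, n = 3), a 21.6-fold difference (log2 4.43, SE 0.16). The log2 fold change was 5.35 with library totals, 4.32 with DESeq2 and 3.23 with the offsets. The lncRNA WAKMAR2, which overlaps the 5′ part of TNFAIP3 on the opposite strand, had a mean of 3.67 counts in parental and 39.3 in edited cells. The library kit does not mark strand, so reads of such a pair cannot be told apart.

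BIRC3, an E3 ligase of the inhibitor of apoptosis family that acts at TNF receptors, lies at chr11:102188215-102210134 on the plus strand. It had 17, 43 and 23 counts in parental and 630, 585 and 237 in edited libraries, and 1.89 ± 1.08 and 15.4 ± 6.07 CPM (SD, n = 3) after scaling. Among the edited libraries replicate 3 was the lowest, and it was still above every parental library. The log2 fold change of 3.04 (SE 0.39) was 2.91 with DESeq2, 3.98 with library totals and 0.92 with the offsets, where it fell short of 3-fold. BIRC3 has a GC content of 36.2% and a length of 4238 bases. The part of either in its difference was not tested beyond the offsets.

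Of the secreted factors, all 3 were well above their parental level under each scaling and with the offsets. CXCL8, a chemokine that attracts neutrophils, lies at chr4:74606236-74609433 on the plus strand. It had 90, 150 and 133 counts in parental and 16086, 13654 and 8332 in edited libraries, and 8.37 ± 2.48 and 405.9 ± 90.5 CPM (SD, n = 3) after scaling. The difference was 48.6-fold, a log2 fold change of 5.60 (SE 0.25), which was 6.54 with library totals, 5.48 with DESeq2 and 4.6 with the offsets.

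CXCL1, a second neutrophil chemokine of the same cluster, lies at chr4:74735110-74737025 on the plus strand. It had 45, 59 and 90 counts in parental and 5606, 4454 and 4690 in edited libraries, and its level was 4.28 ± 1.28 in parental and 159.6 ± 9.82 CPM in edited cells (SD, n = 3). On the log2 scale the difference was 5.21 (SE 0.20) with TMM, 6.13 with library totals, 5.11 with DESeq2 and 5.45 with the offsets. It has near-identical paralogs in CXCL2 and CXCL3, between which reads may be split. The counts of CXCL1 were whole numbers in all 6 libraries, whereas CXCL2 and CXCL3 each had fractional counts in parental replicate 1 (36.14 and 209.86) and in edited replicate 2 (522.32 and 602.68).

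IL6, the cytokine that signals through IL6R and IL6ST, lies at chr7:22765503-22771621 on the plus strand. It was counted 1, 0 and 1 times in the parental libraries and 2447.38, 1932.42 and 1946.52 times in edited cells, or 66.7, 67.3 and 70.9 CPM. The parental libraries were all under 3 counts, the level that a count of 0 allows, so only a bound can be given: IL6 was at least 312.7-fold higher in edited cells, set against 3 counts in a parental library. Its overlapping genes on the opposite strand, IL6-AS1 and STEAP1B, had means of 0 and 3.27 counts in parental and of 13.2 and 18.6 counts in edited cells. These means were small beside the IL6 counts in edited cells, but in parental cells the mean of STEAP1B exceeded the IL6 counts.

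ICAM1, a ligand of leukocyte integrins that cytokine-treated epithelium is known to display, lies at chr19:10381769-10397291 on the plus strand. It had 720, 429 and 667 counts in parental and 2269.29, 1688.58 and 1937.30 in edited libraries, and 40.1 ± 8.34 and 63.8 ± 6.10 CPM (SD, n = 3). As a log2 fold change this was 0.67 (SE 0.17) with TMM, 0.55 with DESeq2, 1.29 with the offsets and 1.59 with library totals, and only the last reached 3-fold. The antisense gene ICAM4-AS1 had a mean of 0 counts in parental and 4.25 in edited cells.

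**Figure D2:**
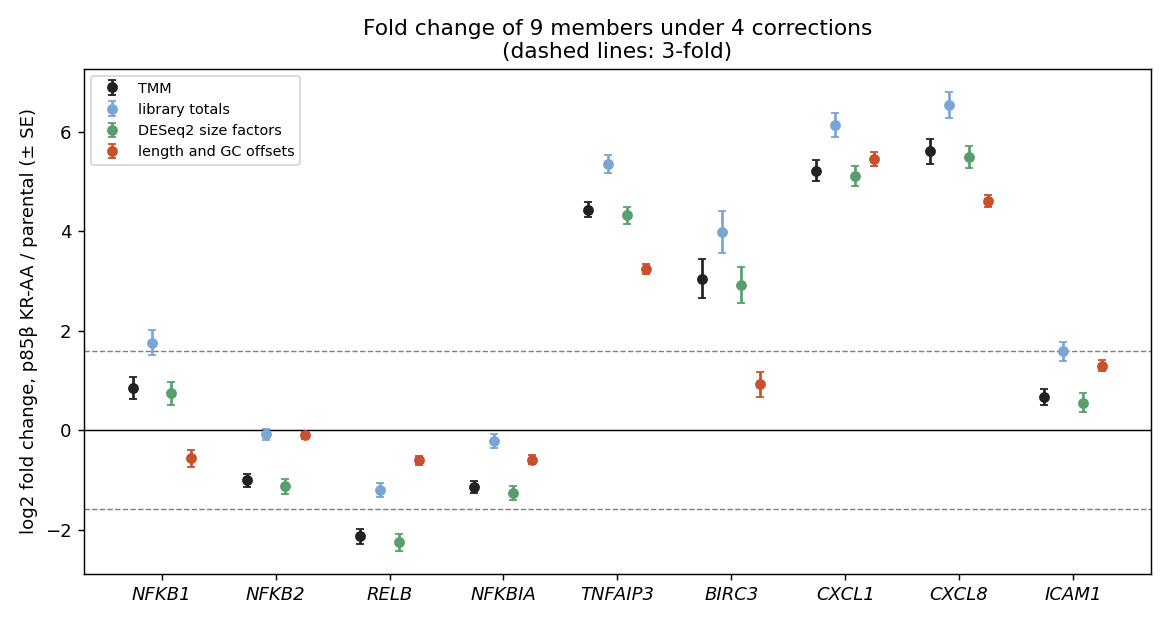
Log2 fold change (p85β KR-AA over parental) with its SE for 9 members under TMM, library totals, DESeq2 size factors and length and GC offsets, with dashed lines at 3-fold. IL6 is not drawn because its parental libraries held at most 1 count. TNFAIP3, CXCL1 and CXCL8 stay above the upper line under all 4, BIRC3 drops to 0.92 and NFKB1 to -0.56 with the offsets, and RELB is below the lower line with TMM and DESeq2.

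Ratios between members within a library do not depend on scaling, although a length or GC effect does not cancel in them. They compare a gene with another and show unequal change, not which of the pair changed. The TNFAIP3 to NFKBIA ratio of counts was 0.0779, 0.0727 and 0.0925 in parental and 3.95, 3.76 and 3.95 in edited libraries, 48.2-fold higher. Of these 2 feedback inhibitors NFKBIA had the more counts in each parental library and TNFAIP3 in each edited one. The corresponding ratio was 85-fold higher for CXCL1, 108.5-fold higher for CXCL8, 4.15-fold higher for NFKB1 and 3.56-fold higher for ICAM1. For RELB it went from 0.844 ± 0.0740 to 0.427 ± 0.0581 (SD, n = 3). The NFKB2 to NFKBIA ratio was 3.47 ± 0.33 in parental and 3.82 ± 0.36 in edited cells, with overlapping ranges. Between the precursor genes, the NFKB1 to NFKB2 ratio was 0.0716, 0.0446 and 0.0915 in parental and 0.247, 0.260 and 0.243 in edited libraries.

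**Figure D3:**
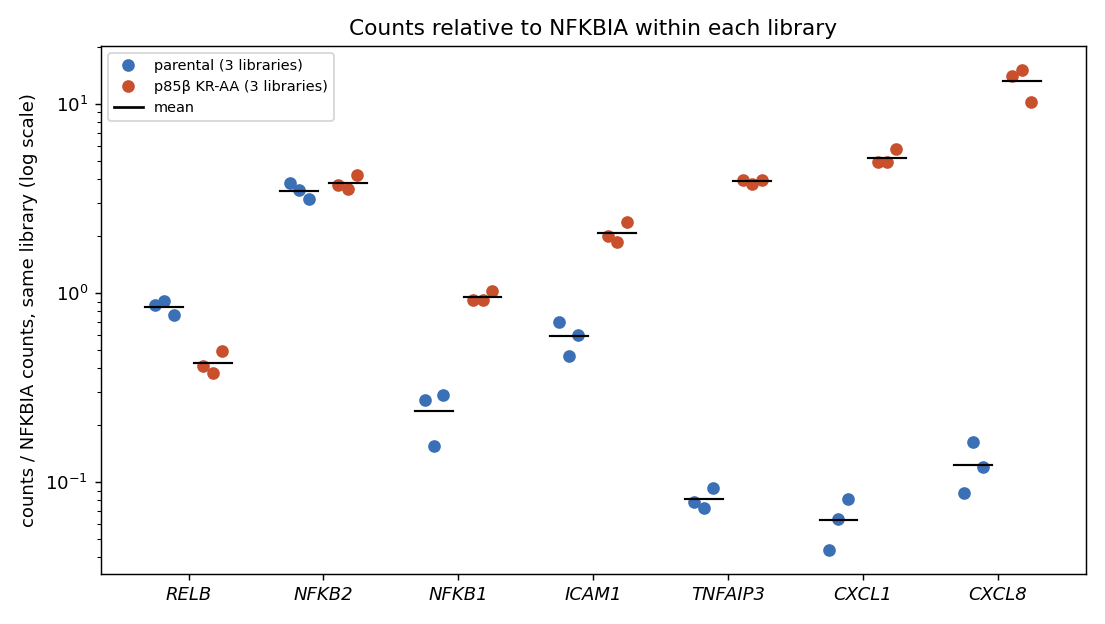
Counts of 7 members divided by the NFKBIA count of the same library (log axis), for 3 parental and 3 p85β KR-AA libraries, with the mean as a bar. TNFAIP3, CXCL1 and CXCL8 lie below 1 in every parental and above 1 in every p85β KR-AA library, and NFKB2 overlaps between the conditions.

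The order of the levels per kilobase of transcript (CPM per kb) was different in the 2 conditions. In parental cells it was led by NFKB2 at 73.9, NFKBIA at 43.7, RELB at 25.2 and ICAM1 at 13.5 CPM per kb. CXCL8 at 5.10, NFKB1 at 4.0 and CXCL1 at 3.90 CPM per kb followed with overlapping ranges, and TNFAIP3 at 1.2, BIRC3 at 0.447 and IL6 at 0.0379 CPM per kb were the lowest. In edited cells the secreted factors led, with CXCL8 at 247.2, CXCL1 at 145.5 and IL6 at 60.6 CPM per kb, and none of these overlapped with its neighbour. NFKB2 stood at 36.7, TNFAIP3 at 27.0, ICAM1 at 21.5 and NFKBIA at 19.8 CPM per kb, of which the last pair overlapped. NFKB1 at 7.23, RELB at 5.75 and BIRC3 at 3.63 CPM per kb were the lowest.

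The edited replicates were close to each other for most members and less so for CXCL8 and BIRC3, the members with the lowest GC content (34.1% and 36.2%). In edited replicate 3 the CPM of CXCL8 was 0.59 lower and that of BIRC3 1.12 lower, on the log2 scale, than the mean of replicates 1 and 2. Among genes above 1 CPM in every edited library, the median of the same difference was -0.56 over the 1532 under 40% GC. Over the 2068 of at least 60% GC it was 0.15. Without this library the log2 fold change of BIRC3 was 3.33 and that of CXCL8 was 5.78.

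Around the members, 126 further genes of the NF-κB pathway were listed by role, of which 125 were found in the table and 103 were tested. Of these 30 rose (29.1%) and 17 fell (16.5%), close to the shares of all tested genes, and their median log2 fold change was 0.35 against 0.32 for all genes. With the length and GC offsets 15 rose (14.6%) and 5 fell (4.85%), where the share of all genes was 12.9% and 11.3%. The counts by role that follow come from few genes each. With TMM they stand beside 28.6% of all tested genes called higher and 17.6% called lower. The genes called with the offsets include some not called with TMM, all named after their values were seen. Of these BCL3, IKBKG, LIF, ITGB2 and LCN2 were called higher (2.07, 2.03, 1.72, 1.62 and 1.67 on the log2 scale). CD83 (-2.50), CYLD (-2.30), OTULIN (-2.39) and OTUD7B (-1.66) were called lower.

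Of the 7 other Rel and IκB genes, 2 rose and 2 fell. REL, a transactivating subunit best known in lymphocytes, had 18.21, 6.88 and 5.60 counts in parental and 340.34, 303.39 and 189.42 in edited cells (log2 fold change 3.68, SE 0.36). NFKBIZ, a nuclear IκB protein needed for IL6 induction in many cells, rose by 2.43 (SE 0.22, edgeR adjusted p = 4.6e-07) on the log2 scale. NFKBIE and NFKBIB, cytoplasmic inhibitors like IκBα, fell by 2.55 (SE 0.14, edgeR adjusted p = 9.3e-09) and 2.03 (SE 0.15, edgeR adjusted p = 8.8e-08). With the offsets none of the 4 passed the threshold, the values being 0.50 for REL, 1.36 for NFKBIZ, -1.43 for NFKBIE and -0.06 for NFKBIB.

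Of the 14 IκB kinases and upstream kinases, 5 rose and 2 fell. The kinase MAP3K7 and its ubiquitin-binding partners TAB2 and TAB3, which carry the signal to the IκB kinase complex, rose by 2.57, 3.41 and 3.70 on the log2 scale (edgeR adjusted p = 3.4e-06, 3.8e-08 and 2.1e-08). TAB1, another partner of MAP3K7, fell by 1.85 (edgeR adjusted p = 3.1e-07), and the kinase IKBKE fell by 1.73 (edgeR adjusted p = 1.2e-06). With the offsets the values of these genes were 0.33 for MAP3K7, 1.40 for TAB2, 1.13 for TAB3, -1.04 for TAB1 and -1.03 for IKBKE, none past the threshold.

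Of the 24 receptors and adaptors tested, 8 rose and 4 fell. IL1RAP, the shared co-receptor for interleukin-1 and IL33, had 8, 8 and 14 counts in parental and 743, 662 and 400 in edited cells (log2 fold change 4.85, SE 0.29). The adaptor TRAF5 rose by 3.52 (SE 0.29, edgeR adjusted p = 2.0e-07). Both also passed with the offsets, at 2.42 and 1.73. TLR5, the receptor for flagellin, was at least 4.13-fold higher, with 1, 0 and 2 parental counts and 32, 36 and 16 in edited cells, but it was not called with the offsets. The adaptor FADD and the receptor TNFRSF12A fell by 2.68 and 2.59 on the log2 scale (edgeR adjusted p = 4.5e-09 and 9.2e-09), and with the offsets they were at -1.55 and -0.53. The adaptor TRADD was at -1.88 with TMM (edgeR adjusted p = 6.6e-08) and at 0.02 (SE 0.10) with the offsets, where no difference was seen.

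Among 16 tested genes listed as deubiquitinases, other brakes on the pathway and ubiquitin factors around them, 2 rose and 4 fell with TMM. The list holds RNF31, RBCK1 and SHARPIN of the linear ubiquitin ligase, which are not brakes, so these counts are not counts of brakes. With library totals 4 rose and none fell, beside 43.9% and 6.06% of all genes. With the offsets none rose and 3 fell, beside 12.9% and 11.3% of all genes. ITCH and TAX1BP1, which work with TNFAIP3, rose by 2.34 and 2.09 (edgeR adjusted p = 6.5e-07 and 1.5e-05). TNIP2, a binding partner of TNFAIP3, fell by 2.40 (edgeR adjusted p = 1.2e-08), and RNF31 of the linear ubiquitin ligase fell by 1.83 (edgeR adjusted p = 4.7e-07). Its partner SHARPIN was at -1.99 with TMM (edgeR adjusted p = 6.7e-08) and at 0.0033 with the offsets, where none of these 5 passed. The 3 that fell with the offsets were other genes, named after their values were seen: the deubiquitinases CYLD (0.59 with TMM and -2.30 with the offsets), OTULIN (0.02 and -2.39) and OTUD7B (0.66 and -1.66).

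Of 12 ligands only 5 had enough counts to test, and 3 rose and 1 fell. IL1A was counted 0, 2 and 0 times in parental and 114, 78 and 65 times in edited cells, at least 12.5-fold higher. IL1B was counted 0, 0 and 2 times in parental and 113, 63 and 92 times in edited cells, at least 13.2-fold higher. These 2 ligands of the interleukin-1 receptor also passed with the offsets. IL33 rose by 2.50 on the log2 scale, and LTB, a ligand of the non-canonical pathway, fell by 3.11 (edgeR adjusted p = 1.4e-06 for LTB). With the offsets IL33 was at 0.97 and LTB at -0.89, not past the threshold. TNF itself was close to the limit of detection in both conditions, with 2, 9 and 6 counts in parental and 5, 4 and 5 in edited libraries.

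Chemokines and cytokines beyond the members were not uniformly higher. Of the 13 tested, 2 rose and 3 fell. CCL20, a chemokine for CCR6-bearing lymphocytes, rose from 9, 9 and 16 counts to 393, 315 and 199 (log2 fold change 3.67, SE 0.30). CXCL2 rose by 3.07 (SE 0.23, edgeR adjusted p = 9.3e-08). Both passed with the offsets too, at 3.06 and 4.10. CSF2 fell by 2.49 (edgeR adjusted p = 6.3e-07), and at -1.86 with the offsets it stayed past the threshold, although with library totals it was -1.56, just short of 3-fold. IL32 and IL23A fell by 1.91 and 1.80 (edgeR adjusted p = 2.9e-07 and 3.0e-04), and did not pass with the offsets. IL23A lost its call in 1 of the 6 fits without a library. CXCL3 stood at 0.55 and CXCL5 at 0.41 on the log2 scale, neither called. They were named for their place in the CXCL1 cluster after their values were seen.

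Receptors for the secreted members were measured in the same libraries. IL6ST, the signal-transducing receptor chain, had 64, 48 and 48 counts in parental and 2097, 1615 and 788 in edited cells (log2 fold change 3.73, SE 0.28, edgeR adjusted p = 8.4e-08), and 2.01 with the offsets, where it also passed. IL6R, the ligand-binding chain, rose by 1.81 (SE 0.20, edgeR adjusted p = 2.1e-06) and was at 1.27 with the offsets, where it did not pass. CXCR2, the receptor shared by CXCL1 and CXCL8, had 3, 2 and 8 counts in parental and 52, 43 and 63 in edited cells (log2 fold change 2.57, SE 0.46), and 1.98 with the offsets, where it passed. CXCR1, the other receptor of CXCL8, was under the filter, with 8, 5 and 8 counts in parental and 20, 9 and 27 in edited libraries.

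Of 20 other NF-κB target genes tested, 5 rose and 1 fell. PTGS2, the inducible cyclooxygenase, rose from 8, 0 and 3 counts to 209, 197 and 101 (log2 fold change 4.44, SE 0.53). TNFAIP2 rose by 2.09 (SE 0.20, edgeR adjusted p = 7.2e-07). Both passed with the offsets, at 2.23 and 2.66. XIAP, a relative of BIRC3, was at 1.96 with TMM (edgeR adjusted p = 3.6e-06) and was at -0.99 with the offsets, so its direction depended on the correction. BCL2L1, which restrains apoptosis, fell by 1.69 (edgeR adjusted p = 7.3e-08) and was at -0.99 with the offsets, not past the threshold. The endothelial adhesion genes VCAM1 and SELE, which share inducers with ICAM1, were at 0 counts in every library.

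**Figure D4:**
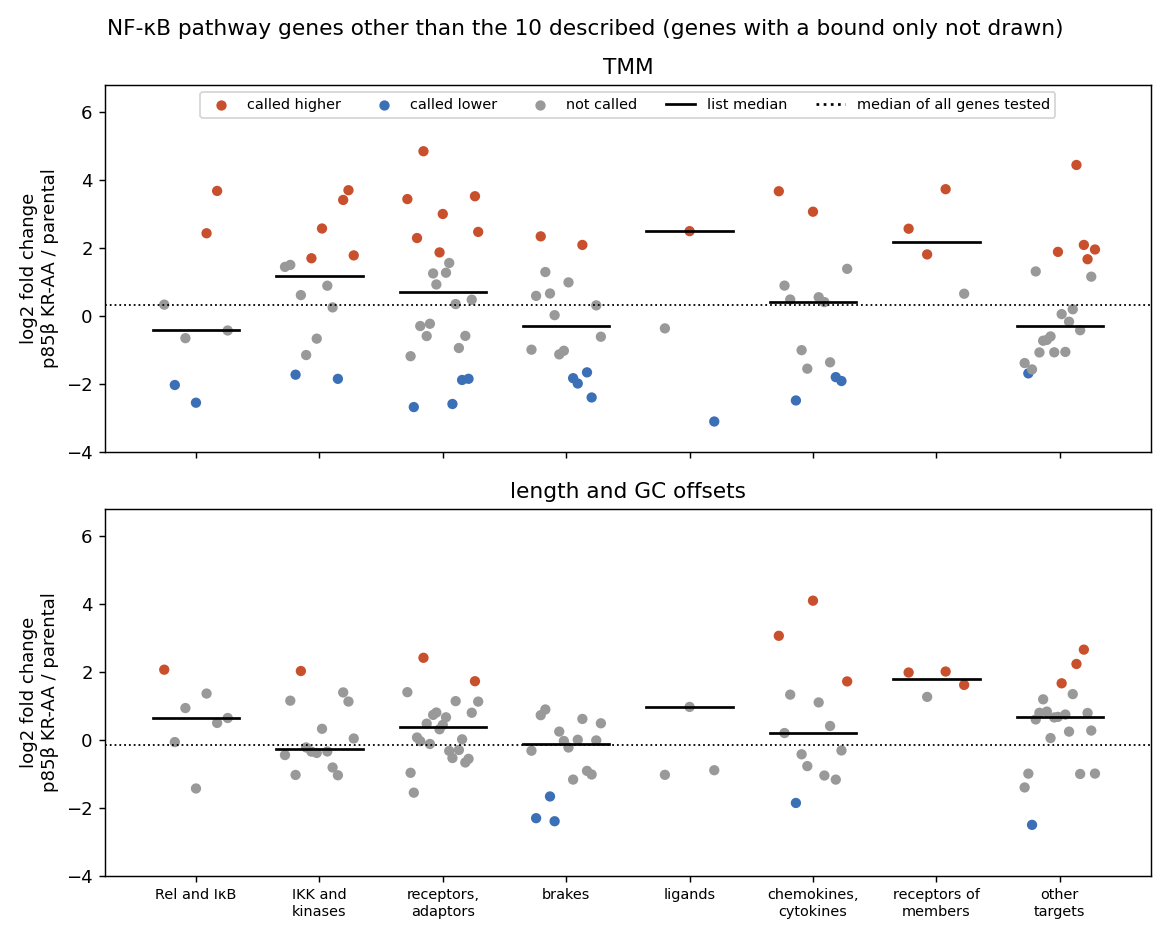
Log2 fold change (p85β KR-AA over parental) of the tested pathway genes by role, with TMM (upper panel) and with length and GC offsets (lower panel). Points are genes coloured by call, the solid bar is the list median and the dotted line the median of all genes. IL1A, IL1B and TLR5 are not drawn, having a bound only. Fewer points are coloured in the lower panel than in the upper. With the genes not drawn included, 15 were higher and 5 lower over all lists, against 30 and 17 with TMM. The column labelled brakes also holds genes of the linear ubiquitin ligase.

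Across the 6 libraries, the genes whose log2 CPM was most like that of TNFAIP3 were TMEM198B, SERPINE2 and COL5A2, and the Pearson correlation was over 0.99 for 1489 of 16058 genes (9.27%). The libraries fall into 2 groups of 3, so such values mostly restate the difference between the conditions and are given as a description. Among the members, the correlation with TNFAIP3 was 0.999 for IL6, 0.997 for CXCL1, 0.992 for CXCL8, 0.931 for BIRC3, 0.877 for ICAM1 and 0.860 for NFKB1. It was -0.997 for NFKBIA, -0.997 for RELB and -0.987 for NFKB2.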

How the data were processed

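RNA was extracted from DLD1 parental and DLD1 p85β KR-AA cells with Trizol and made into 6 libraries with an Illumina TruSeq RNA kit that does not mark strand. The authors deposited estimated counts per gene for each library, made before deposit from aligned reads and not normalized. The submitters' processing notes name HISAT2 2.1.0, RSEM 1.3.1 and DESeq2 1.24.0 and a genome build, with no role or order, so the step each tool served is not given in the sources used here. The source names of p85β KR-AA replicates 2 and 3 spell the changed residues differently from their titles and genotype, which were followed. Columns were matched to samples by title.

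Counts had been planned for, and since the values were estimated they were rounded before edgeR 4.0.16 (R 4.3.3) was run with filterByExpr (minimum count 10, minimum total 15), TMM and a quasi-likelihood test between conditions. Of 58884 genes 16059 were tested, Benjamini-Hochberg adjusted over all of them, and called past 3-fold with an adjusted p below 0.01. Depth was 20301396 to 26712816 counts, which makes 3 counts 0.0818 to 0.218 CPM, a limit that covers counting error only. Alternatives were library totals, DESeq2 1.42.0, other filters and thresholds, leaving out each library, the replicate number as a block, and per-library spline offsets (5 degrees of freedom) for gene length and GC content, for which 15902 genes had a value. Whether the offsets also remove real differences in these libraries was not tested.

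Symbols, positions and GC content came from GENCODE 44 annotation on GRCh37 (56745 IDs with a symbol). Gene lengths were those the authors deposited with the counts. The genome build of the counts could not be settled from their gene IDs. Promoters came from RefSeq, each placed by 1 exact match in GRCh37. SOD2 and PECAM1 had no row under those symbols and were not analysed here. The genes named are the 10 members, RELA, 4 cytokine and chemokine receptors, up to 3 called genes per direction in each pathway list by fold change, PIK3R2, the 3 genes most like TNFAIP3, and genes overlapping a member. CXCL3, CXCL5, TNF, VCAM1, SELE, single marker genes and genes called with the offsets alone were named after their values were seen. The members and lists were chosen with earlier results of these data known.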

Additional observations from a re-analysis of the deposited data

How the results depend on the processing

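No alternative reversed the sign of a called member, while NFKB1, which was not called, went from 0.85 to -0.56 on the log2 scale with the offsets. For the 10 members, 129 fold changes under alternatives were compared with the reported ones, of which 90 moved by less than the spread between replicates and 39 moved by more. The reported counts, rising and falling, were 4597 and 2825 of all tested genes, 30 and 17 of the pathway genes and 5 and 1 of the members. With library totals they were 7052 and 973 of all genes, 43 and 4 of the pathway genes and 7 and 0 of the members. With length and GC offsets they were 2053 and 1802, 15 and 5, and 4 and 0. With an adjusted p under 0.05 and no fold threshold they were 7373 and 5738, 51 and 41, and 7 and 3. With a fold of at least 2 and an adjusted p under 0.05 they were 6074 and 4289, 39 and 29, and 5 and 3. Where every library needed at least 10 counts, 2898 of all genes and 4 members were higher, IL6 being left out for lack of parental counts. DESeq2 gave 4202 and 3094, and no filter gave 5225 and 2993. Leaving out each library in turn gave 4404 to 4783 and 2774 to 2992 of all genes, 29 to 31 and 17 to 19 of the pathway genes, and 5 and 1 of the members each time. In a fit that took the replicate number as a block they were 4626 and 2827, 31 and 17, and 5 and 1, and together with the offsets 1961 and 1777, 15 and 5, and 4 and 0. No pairing by replicate number was seen: deviations of same-numbered libraries from their group means correlated at -0.20, 0.18 and -0.06. Not every library correlated best with its own number. Deviations from a mean of so few libraries are tied to each other, so these values cannot exclude a pairing. Depth limits IL6, IL1A, IL1B and TLR5 to bounds, and TNF and CXCR1 to counts.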
